A study of Mus musculus with 6 samples.

Results

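The antioxidant response genes described here are 10 genes of the pathway controlled by the transcription factor NRF2, taken by their symbols from the 52550 genes of a bulk RNA-seq count table. They are the regulators Nfe2l2 and Keap1, the glutathione synthesis genes Gclc, Gclm and Slc7a11, the thioredoxin and peroxiredoxin genes Txn1, Txnrd1, Prdx1 and Srxn1, and the quinone reductase gene Nqo1. All 10 were found in the table, and all 10 were among the 16402 genes with enough counts to be tested. The libraries came from bone marrow-derived macrophages of C57BL/6 mice, 3 from whole-body knockout animals for the scavenger receptor MSR1 (MSR1 KO) and 3 from animals of the same background with the receptor intact (MSR1 WT). In each group, red blood cells were lysed, the marrow was grown for 7 days in medium with 25 ng/ml M-CSF, and the macrophages then shared a transwell with bone marrow stromal cells (BMSCs) for 48 h before RNA extraction. The comparison addresses which macrophage transcripts depend on MSR1 when stromal cells are present. The study calls the libraries of a group biological replicates, but the labels do not say whether these were separate animals or separate cultures, so p-values measure the spread between these libraries only.

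NRF2, the product of Nfe2l2, is controlled mainly through the stability of its protein. The adaptor KEAP1 hands it to a CUL3 ubiquitin ligase for degradation, and oxidants or electrophiles that modify KEAP1 let NRF2 accumulate, pair with small MAF proteins and bind antioxidant response elements in its target genes. In macrophages the pathway is known for supplying glutathione, thioredoxin and detoxifying enzymes during oxidative stress, and the level of Nfe2l2 mRNA by itself does not report the activity of the protein.

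Total counts ranged from 36143518 to 47417448 per library. Msr1 had 49.3 ± 8.51 CPM in MSR1 KO and 200 ± 20.9 CPM in MSR1 WT (SD, n = 3), so that its reads fell but did not vanish (log2 fold change -2.02, adjusted p = 0.0012 by edgeR's quasi-likelihood test). CPM is the count of a gene scaled to a fixed library size after TMM normalization, and calls are genes with an adjusted p under 0.05 in that test, with Benjamini-Hochberg adjustment over all genes tested. All 10 macrophage markers examined were expressed, with Lyz2 at 13398 CPM in MSR1 KO and 14912 CPM in MSR1 WT. Of 12 stromal markers none was at 0, 4 were called lower in MSR1 KO and none higher (3 more lower and Thy1 higher by DESeq2's Wald test), and their summed level was 2247 to 2877 CPM in MSR1 KO and 3090.2 to 3797 CPM in MSR1 WT. All 12 neutrophil markers had a positive log2 fold change (median 0.37), none was at 0 or called by edgeR, DESeq2 called 3 higher, and their summed level was 953 to 1369 CPM in MSR1 KO and 664 to 1066 CPM in MSR1 WT. The stromal markers thus moved in the direction of most differences described below and the neutrophil markers in the other, and their part in those differences was not tested.

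The promoters of 4 members are shown first, because they hold motifs through which NRF2 and related stress factors are known to act. Windows from 250 bases before to 50 bases after each start came from RefSeq on GRCm38.p6 and matched 9 of the 10 members, with no entry for Gclc. Srxn1 and Prdx1, the members that fell in MSR1 KO, are shown with capitals on the form TGANTCAGC that NRF2 shares with small MAF proteins and on TGANTCA, the AP-1 type core that lies within it. Gclm is shown for a match to the general antioxidant response core TGACNNNGC, and Slc7a11 for its matches to TGATGNAA, the core of the amino acid response element. Capitals mark these matches, each line runs 5′ to 3′ on the strand of the gene, and bases inside the annotated gene were left off.
Srxn1, chr2:152105274-152105515, plus strand: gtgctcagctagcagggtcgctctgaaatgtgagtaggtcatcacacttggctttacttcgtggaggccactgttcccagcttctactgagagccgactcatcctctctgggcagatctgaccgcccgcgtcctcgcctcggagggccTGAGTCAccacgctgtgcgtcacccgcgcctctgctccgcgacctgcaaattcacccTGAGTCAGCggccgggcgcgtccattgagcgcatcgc
Prdx1, chr4:116685349-116685543, plus strand: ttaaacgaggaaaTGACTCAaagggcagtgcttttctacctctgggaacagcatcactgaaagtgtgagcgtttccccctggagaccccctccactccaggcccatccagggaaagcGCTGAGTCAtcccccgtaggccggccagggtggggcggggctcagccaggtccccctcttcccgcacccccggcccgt
Gclm, chr3:122245307-122245556, plus strand: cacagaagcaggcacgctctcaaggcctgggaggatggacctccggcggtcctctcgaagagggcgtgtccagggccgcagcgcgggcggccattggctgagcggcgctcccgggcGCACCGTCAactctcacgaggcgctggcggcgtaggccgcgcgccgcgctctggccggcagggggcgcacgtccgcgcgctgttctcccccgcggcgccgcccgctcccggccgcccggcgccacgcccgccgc
Slc7a11, chr3:50443615-50443863, minus strand: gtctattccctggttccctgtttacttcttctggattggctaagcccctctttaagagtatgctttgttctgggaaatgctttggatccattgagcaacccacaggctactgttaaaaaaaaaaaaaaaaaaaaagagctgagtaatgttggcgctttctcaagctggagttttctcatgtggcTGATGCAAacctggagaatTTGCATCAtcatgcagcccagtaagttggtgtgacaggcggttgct

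With both strands searched, TGANTCAGC lay at position -45 of Srxn1 and, on the opposite strand, at -133 of Prdx1, counted from the RefSeq start. Of all 32851 windows, 1.19% held it, and among the 9 members with a window it was found in these 2. TGANTCA, held by 7.81% of windows, had a further match at -102 of Srxn1 and at -237 of Prdx1. TGACNNNGC, held by 12.4% of windows, was found in Nfe2l2, Gclm, Txnrd1, Prdx1 and Srxn1, where the match in Prdx1 is the same stretch as its TGANTCAGC. Slc7a11 held TGATGNAA at -66 and, on the opposite strand, at -47, against 3.97% of all windows. No match to the 4 motifs was found in the windows of Keap1, Txn1 and Nqo1. The motifs were chosen after the sequences had been seen, and a match is a description of letters that shows no binding.

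Among the 10 members, Srxn1 and Prdx1 fell in MSR1 KO and none rose, whereas 4.91% of all tested genes were called, 2.66% lower and 2.25% higher. In bulk RNA, fewer cells of a type and less RNA per cell cannot be told apart. Without adjustment, 5 members had p under 0.05 for a lower level and Keap1 for a higher level, and no all-gene share is given for this. DESeq2's Wald test called Txnrd1, Prdx1 and Srxn1 lower and none higher. It called more of all 16402 tested genes than edgeR did, 847 lower and 716 higher. In 5 members (Srxn1, Prdx1, Txnrd1, Slc7a11 and Nqo1) the highest MSR1 KO value was under the lowest MSR1 WT value, an arrangement found in 13.4% of all tested genes. Keap1 was alone in having every MSR1 KO library above every MSR1 WT library, as 12.1% of all tested genes did, and the other 4 members overlapped, so that 6 members had groups apart beside 25.5% of all tested genes. The median log2 fold change of the members was -0.27, beside -0.0023 for all tested genes. With a library left out it ranged from -0.34 to -0.16. The summed level of the members was 1854 to 2124 CPM in MSR1 KO and 2330.4 to 2459 CPM in MSR1 WT, and Prdx1 supplied 48.2% to 57.2% of it.

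**Figure D1:**
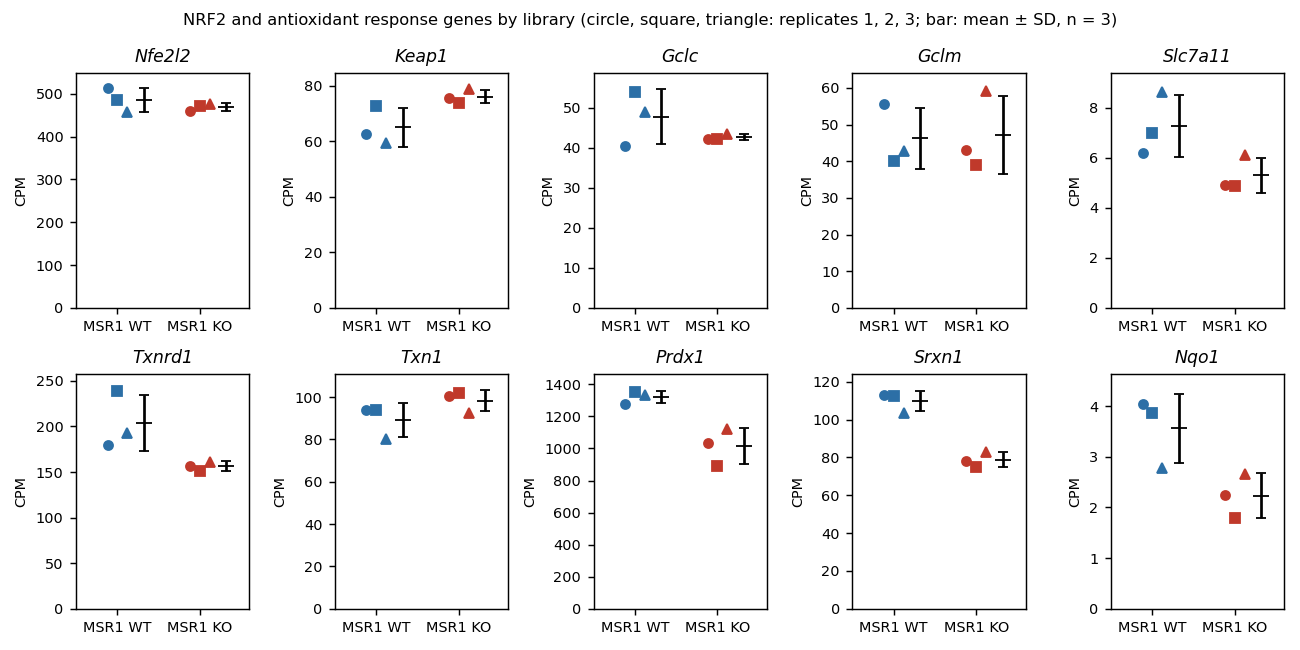
Level of each member gene in CPM (y axis from 0) in the 3 MSR1 WT libraries (blue) and the 3 MSR1 KO libraries (red), with the mean ± SD as a black bar. The groups do not overlap for Srxn1, Prdx1, Txnrd1, Slc7a11 and Nqo1, where MSR1 KO is below, and for Keap1, where it is above.

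Srxn1 encodes sulfiredoxin, which repairs peroxiredoxins that peroxide has over-oxidized. The gene (ENSMUSG00000032802.8) lies on chromosome 2 from 152105516 to 152111376 (GRCm38, plus strand). It stood at 78.4, 75.0 and 82.9 CPM in MSR1 KO replicates 1 to 3 and at 113, 113 and 104 CPM in the MSR1 WT replicates, from 2815 to 5348 counts per library. The groups were well apart for their spread, since the lowest MSR1 WT library was 1.25 times the highest MSR1 KO library, the widest such gap among the members. Srxn1 thus fell by 28.2% (log2 fold change -0.48, standard error 0.076, 95% interval -0.65 to -0.30, adjusted p = 0.0193 by edgeR's quasi-likelihood test). When any 1 library was omitted, the log2 fold change stayed between -0.52 and -0.44. The call was lost without MSR1 KO replicate 1 or 2 or MSR1 WT replicate 1 or 2. It was also lost with the replicate number as a block (adjusted p = 0.0664 by the same test), and the highest adjusted p over all alternatives was 0.0883.

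Prdx1 encodes peroxiredoxin 1, an abundant enzyme that reduces hydrogen peroxide with electrons from thioredoxin. It lies on chromosome 4 from 116685544 to 116700822 (ENSMUSG00000028691.12, plus strand), and only a 101-base stretch of it has a close copy in another gene of appreciable counts, Sec23b. Its level was 1032, 893 and 1120.0 CPM in MSR1 KO and 1280.2, 1350.2 and 1333 CPM in MSR1 WT. The MSR1 WT libraries were close together, and MSR1 KO replicate 2 was the lowest of the 6. Prdx1 fell by 23.2% (log2 fold change -0.38, standard error 0.087, 95% interval -0.58 to -0.18, adjusted p = 0.0483). This value is just under the threshold. With 1 library left out, the call stayed without MSR1 KO replicate 3 only (log2 fold change -0.45 to -0.30, highest adjusted p 0.153). It was also lost with the replicate number as a block (adjusted p = 0.0974) and without a filter on low counts (adjusted p = 0.0659), by the same edgeR test.

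Txnrd1 encodes cytosolic thioredoxin reductase, the selenoenzyme that returns thioredoxin to its reduced form using NADPH, and lies on chromosome 10 from 82833951 to 82897712 (plus strand). It had 157, 151 and 161 CPM in MSR1 KO and 180.0, 238 and 193 CPM in MSR1 WT. The 3 MSR1 KO libraries lay within a narrow range below the MSR1 WT libraries, whose spread came mostly from replicate 2. The log2 fold change was -0.38 (standard error 0.11, 95% interval -0.62 to -0.13), the same size as that of Prdx1, but the adjusted p was 0.0907 by edgeR's quasi-likelihood test. DESeq2's Wald test gave an adjusted p of 0.0259, the lowest among the alternatives, which reached 0.216.

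Txn1 encodes thioredoxin itself, the small protein that carries electrons to peroxiredoxins and other disulfides, and lies on chromosome 4 from 57943373 to 57956411 (minus strand). Its 3 MSR1 KO libraries had 100.4, 102 and 92.5 CPM, and its MSR1 WT libraries had 93.7, 93.7 and 80.0 CPM. These ranges overlapped, and the log2 fold change of 0.14 (95% interval -0.061 to 0.34, adjusted p = 0.451) left the direction unresolved.

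In glutathione synthesis, none of the 3 members was called. Slc7a11 encodes the light chain of the cystine importer xCT, and lies on chromosome 3 from 49892526 to 50443614 (minus strand). It had 4.90, 4.87 and 6.11 CPM in MSR1 KO and 6.18, 6.98 and 8.64 CPM in MSR1 WT. The groups only just failed to overlap, with the lowest MSR1 WT library 1.01 times the highest MSR1 KO library. Its log2 fold change was -0.46 (standard error 0.18, 95% interval -0.88 to -0.033, adjusted p = 0.226). A 373-base stretch of its transcripts is nearly identical to a part of the abundant Tuba1b, so the 176 to 357 counts per library are uncertain.

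Gclc and Gclm encode the catalytic and modifier subunits of glutamate-cysteine ligase, which makes the rate-limiting step of glutathione synthesis. Gclc (chromosome 9, 77754535 to 77794485, plus strand) had 42.2, 42.1 and 43.4 CPM in MSR1 KO and 40.4, 53.9 and 48.8 CPM in MSR1 WT. MSR1 WT replicate 1 lay below the narrow range of the MSR1 KO libraries and the other MSR1 WT libraries above it. The log2 fold change was -0.16 (95% interval -0.42 to 0.089, adjusted p = 0.488). It was -0.27 without MSR1 WT replicate 1 and -0.067 without MSR1 WT replicate 2. Gclm (chromosome 3, 122245557 to 122270732, plus strand) had 43.1, 39.0 and 59.3 CPM in MSR1 KO and 55.7, 40.2 and 42.7 CPM in MSR1 WT. Its high libraries, replicate 3 of MSR1 KO and replicate 1 of MSR1 WT, were in different groups, and its log2 fold change of 0.029 (95% interval -0.38 to 0.44, adjusted p = 0.953) became -0.0036 when libraries were scaled by their totals alone. Of the exon bases of Gclm, 8.58% are shared with the overlapping genes Gm6061 and Gm17494, and 287 bases are nearly identical to a part of the abundant Ppia, so its counts are uncertain.

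Nqo1 encodes the quinone reductase that is widely used as a readout of NRF2 activity. The gene lies on chromosome 8 from 107388225 to 107403206 (minus strand), the chromosome that also carries Msr1. It was weakly expressed, with 2.26, 1.78 and 2.67 CPM in MSR1 KO and 4.05, 3.86 and 2.78 CPM in MSR1 WT, from 71 to 183 counts per library. MSR1 WT replicate 3 lay only 1.04 times above the highest MSR1 KO library. Nqo1 had the most negative log2 fold change of the members, -0.67, but also the widest interval, -1.24 to -0.10 (standard error 0.25, adjusted p = 0.184). It was the 1 member that met the study's own definition of a differentially expressed gene, a fold change above 1.5 with an unadjusted p under 0.05, being 1.59-fold lower, as did 5.05% of all tested genes in that direction. In the other direction 3.59% of all tested genes met it and no member did.

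For the regulators, no member passed the adjusted test. Nfe2l2 (ENSMUSG00000015839.6, chromosome 2, 75675513 to 75704641, minus strand) had 459, 471 and 477 CPM in MSR1 KO and 515, 486 and 459 CPM in MSR1 WT. The groups overlapped, and the interval of its log2 fold change, -0.20 to 0.099 around -0.053, was the narrowest among the members (standard error 0.066, adjusted p = 0.743). Keap1 (chromosome 9, 21229730 to 21239361, minus strand) had 75.7, 74.0 and 78.7 CPM in MSR1 KO and 62.8, 72.9 and 59.4 CPM in MSR1 WT. Every MSR1 KO library was the higher, MSR1 WT replicate 2 by little, and the log2 fold change was 0.23 (standard error 0.092, 95% interval 0.015 to 0.44, adjusted p = 0.229). Of the exon bases of Keap1, 10.9% are shared with Gm16754 on the opposite strand, which had 93 to 217 counts per library, and whether counting used the strand is not given in the sources used here.

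**Figure D2:**
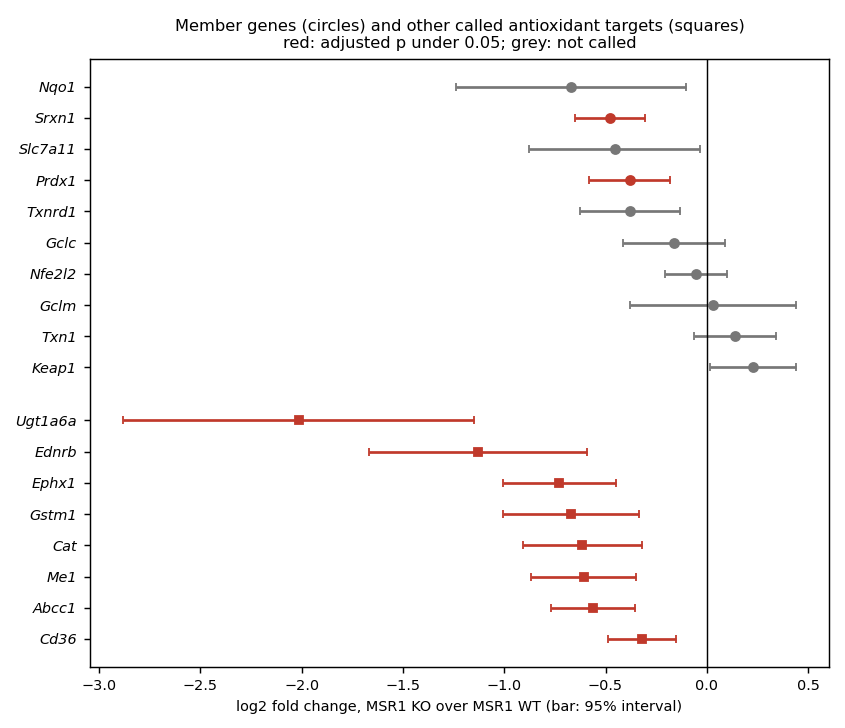
Log2 fold change of MSR1 KO over MSR1 WT (x axis) with its 95% interval for the 10 members (circles) and for the 8 other antioxidant response targets that were called (squares), red where the adjusted p was under 0.05. Among the members the intervals of Nqo1, Srxn1, Slc7a11, Prdx1 and Txnrd1 lie below 0 and that of Keap1 lies above 0, and of these Srxn1 and Prdx1 were called.

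Per kilobase of exon, the levels of the members were spread widely. Prdx1 was the highest, at 293 to 444 CPM per kb over the 6 libraries, followed by Nfe2l2 at 121 to 136 and Txn1 at 76.1 to 97.0 CPM per kb. Srxn1, at 26.6 to 40.0 CPM per kb, and Txnrd1, at 21.4 to 33.7 CPM per kb, overlapped over all 6 libraries but not within either genotype. Keap1 (12.7 to 16.8 CPM per kb) and Gclc (10.7 to 14.3 CPM per kb) overlapped in MSR1 WT but not in MSR1 KO. Gclm followed at 6.20 to 9.42 CPM per kb, Nqo1 at 1.15 to 2.61 CPM per kb, and Slc7a11 was the lowest at 0.35 to 0.621 CPM per kb. No other neighbours in this order overlapped, so the order of the remaining members was the same in every library. The reductase and repair genes Txnrd1 and Srxn1 were thus expressed well below the abundant peroxiredoxin they serve. The order depends on the exon lengths used, which were 13922 bases for Slc7a11, 1553 for Nqo1, 7086 for Txnrd1 and 2820 for Srxn1. In CPM, Slc7a11 was above Nqo1 and Txnrd1 was above Srxn1 in every library.

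**Figure D3:**
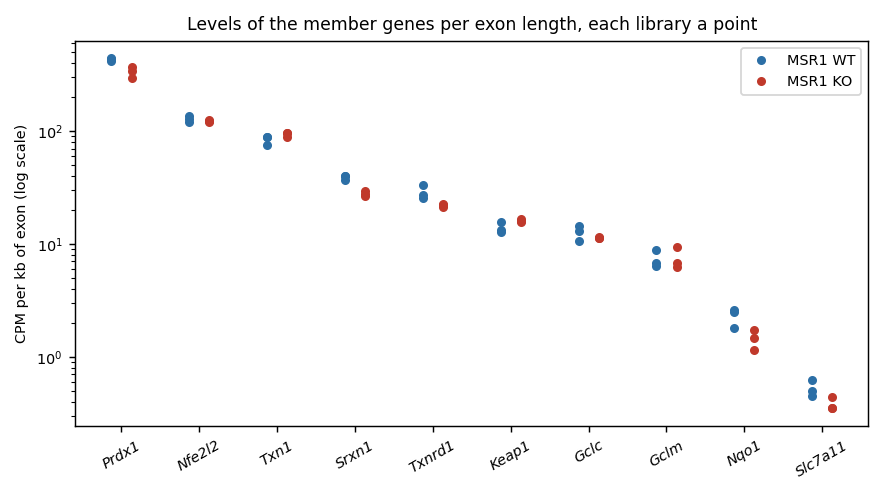
Level of the 10 members in CPM per kilobase of exon (log axis), ordered by their mean, with each library as a point (blue MSR1 WT, red MSR1 KO). Levels run from Prdx1 at 293 to 444 down to Slc7a11 at 0.35 to 0.621 CPM per kb, and Srxn1 with Txnrd1 and Keap1 with Gclc are the neighbours whose ranges meet.

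Ratios of partner genes within a library do not depend on how libraries are scaled, and 4 were compared by a two-sided exact permutation test, which with 3 against 3 libraries cannot give a p below 0.1. The count ratio of Keap1, the inhibitor, to Nfe2l2 was 0.165, 0.157 and 0.165 in MSR1 KO and 0.122, 0.150 and 0.130 in MSR1 WT. All 3 MSR1 KO libraries were above the MSR1 WT libraries (log2 difference 0.28, exact p = 0.1, 0.2 after adjustment over the 4 pairs). The ratio of the reductase gene Txnrd1 to its substrate gene Txn1 was 1.56, 1.49 and 1.75 in MSR1 KO and 1.92, 2.55 and 2.41 in MSR1 WT. Here all 3 MSR1 KO libraries were below (log2 difference -0.51, exact p = 0.1, 0.2 after adjustment). Gclm to Gclc ranged from 0.926 to 1.36 in MSR1 KO and from 0.745 to 1.38 in MSR1 WT, and the groups overlapped (log2 difference 0.17, exact p = 0.6, adjusted 0.6). Srxn1 to Prdx1 ranged from 0.074 to 0.0840 in MSR1 KO and from 0.0777 to 0.0881 in MSR1 WT, again overlapping (log2 difference -0.091, exact p = 0.3, adjusted 0.4).

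**Figure D4:**
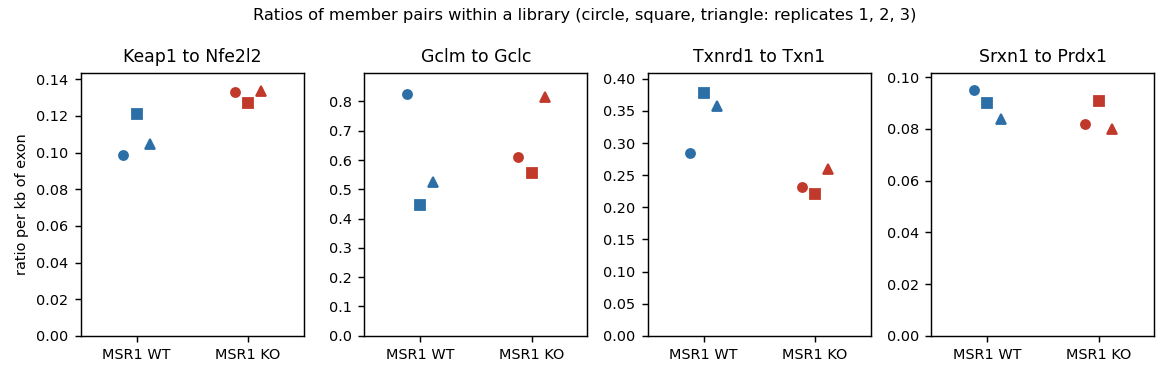
Ratio of the levels per kilobase of exon of 4 pairs of member genes within each library (y axis from 0), blue for MSR1 WT and red for MSR1 KO, with 3 libraries per group. The 3 MSR1 KO libraries lie above MSR1 WT for Keap1 to Nfe2l2 and below it for Txnrd1 to Txn1, and the groups overlap for the other pairs.

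MSR1 KO replicate 2 was the lowest of the 6 libraries for Gclm, Slc7a11, Txnrd1, Prdx1, Srxn1 and Nqo1, that is for 6 of the 10 members. The same library had the highest summed level of 18 interferon response genes, 4962 CPM, beside 3407 to 4113 CPM in the other MSR1 KO libraries and 1185 to 2087 CPM in MSR1 WT, and the bearing of these genes on the members was not tested. MSR1 KO replicate 3, with the lowest interferon sum of its group, had the highest level of the MSR1 KO libraries for those 6 members. These 6 members were picked by their low level in MSR1 KO replicate 2, and no all-gene share is given for this. In all but Gclm the groups did not overlap and MSR1 KO was lower, so the lowest library had to be an MSR1 KO library. The order of so few libraries cannot show a relation to the interferon sum. Among the MSR1 WT libraries, replicate 3 had the highest interferon sum, and Srxn1 and Nqo1 were lowest in it. Slc7a11 was highest in it, and Gclm, Txnrd1 and Prdx1 lay between the other MSR1 WT libraries.

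Beyond the members, 59 other known antioxidant response targets could be tested, and 8 of them (13.6%) fell in MSR1 KO while none rose. Of all tested genes, 2.66% were called lower and 2.25% higher. The list was written by hand with earlier results of these data known, so its share does not test the pathway independently. Without adjustment 22 had p under 0.05 for a lower and 3 for a higher level, and no all-gene share is given for this. DESeq2's Wald test called 12 lower and none higher, beside 847 lower and 716 higher of all 16402 tested genes. Their median log2 fold change was -0.18. In 21 of them every MSR1 KO library was below every MSR1 WT library, beside 3 with the reverse and 35 that overlapped. Over all tested genes, 13.4% had MSR1 KO below in this way and 12.1% had it above. Gpx2, Gsta1, Gsta2, Gstm6, Cyp2a5 and Ces1g had no count in any library. The count of these calls changed with the libraries, and was 0 without MSR1 KO replicate 1, MSR1 KO replicate 2 or MSR1 WT replicate 2, 1 without MSR1 WT replicate 1, 2 without MSR1 KO replicate 3 and 8 without MSR1 WT replicate 3.

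Cat, encoding catalase, which breaks down hydrogen peroxide in peroxisomes, had 473, 380.3 and 500.3 CPM in MSR1 KO and 747, 741 and 585 CPM in MSR1 WT. Cat fell by 34.7% (log2 fold change -0.61, standard error 0.13, adjusted p = 0.0368). Me1, the cytosolic malic enzyme that makes NADPH, fell from 16.3 ± 1.18 to 10.7 ± 0.443 CPM (log2 fold change -0.61, adjusted p = 0.0267). These are enzymes of peroxide removal and of the NADPH supply on which Txnrd1 draws.

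Among enzymes that process foreign compounds, Ephx1, the microsomal epoxide hydrolase, fell from 33.3 ± 4.67 to 20.1 ± 1.33 CPM (log2 fold change -0.73, adjusted p = 0.0221). Gstm1, a glutathione S-transferase, fell from 126 ± 22.8 to 79.1 ± 11.0 CPM (log2 fold change -0.67, adjusted p = 0.0408). Ugt1a6a, a glucuronosyltransferase, went from 10.5 ± 5.17 to 2.61 ± 0.359 CPM (log2 fold change -2.02, adjusted p = 0.0267), but its exons are shared with 9 other genes of the Ugt1a cluster, so its counts are uncertain. Ednrb, the endothelin receptor type B, which is no antioxidant enzyme, fell from 139 ± 37.2 to 63.8 ± 15.5 CPM (log2 fold change -1.13, adjusted p = 0.0363).

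The other called targets, named after their values had been seen, were Abcc1, an exporter of glutathione conjugates (log2 fold change -0.56, adjusted p = 0.0197), and Cd36, a scavenger receptor for oxidized lipids (log2 fold change -0.32, adjusted p = 0.0476). Hmox1, encoding heme oxygenase 1, a classical NRF2 target, had 722, 570 and 890.3 CPM in MSR1 KO and 899, 1058 and 879 CPM in MSR1 WT. MSR1 KO replicate 3 lay above MSR1 WT replicate 3, so the groups overlapped, and Hmox1 was not called (log2 fold change -0.38, adjusted p = 0.226).

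Of 25 tested genes for its dimer partners, competitors and turnover, 1 rose and none fell, with a median log2 fold change of 0.023 (1 had an unadjusted p under 0.05 for a lower level, and DESeq2 called none lower). The gene that rose was Trim21, a ubiquitin ligase and antibody receptor that interferon also induces, from 36.9 ± 3.86 to 57.2 ± 5.64 CPM (log2 fold change 0.64, adjusted p = 0.0234). Its call was lost without MSR1 KO replicate 1 or 2 or MSR1 WT replicate 1 or 2 and with the replicate number as a block, in 5 of the 13 settings (highest adjusted p 0.0984). The dimer partners Mafg and Mafk had log2 fold changes of 0.023 and 0.21, and Bach1, a repressor at the same elements, had 0.14 (adjusted p = 0.906, 0.412 and 0.648). Cul3, the ligase scaffold that works with KEAP1, had 0.016, and Sqstm1, which sequesters KEAP1, had 0.023 (adjusted p = 0.952 and 0.956). Nfe2l1, a relative of NRF2, had 54.0, 58.0 and 46.6 CPM in MSR1 KO and 209, 46.4 and 46.4 CPM in MSR1 WT. Its log2 fold change of -0.93 (adjusted p = 0.412) came from MSR1 WT replicate 1 and was 0.19 without that library. For Nfe2, another relative, the value was 0.55 on the log2 scale (adjusted p = 0.208).

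Of 21 other thioredoxin, peroxiredoxin, glutaredoxin and methionine sulfoxide reductase genes, Msrb3 fell and none rose, and the median log2 fold change was -0.0081 (3 had an unadjusted p under 0.05 for a higher level, and DESeq2 called none higher). Msrb3, a methionine sulfoxide reductase, fell from 27.4 ± 0.975 to 16.9 ± 1.37 CPM (log2 fold change -0.70, adjusted p = 0.0150). That call was lost without MSR1 KO replicate 1 or MSR1 WT replicate 1 and with the replicate block, in 3 of the 13 settings (highest adjusted p 0.0645). Glrx, encoding glutaredoxin 1, differed by 0.35 on the log2 scale (adjusted p = 0.120), and Txnrd3 by -0.39 (adjusted p = 0.628). With a library left out, Glrx ranged from 0.26 to 0.43 and Txnrd3 from -0.84 to -0.16. The peroxiredoxin genes Prdx2 to Prdx6, named after their values had been seen, had log2 fold changes from -0.15 for Prdx3 to 0.19 for Prdx5, and none was called. The difference between Prdx1 and these relatives was not tested.

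In a joint list of 13 superoxide dismutase and phagocyte oxidase genes, none was called by edgeR in either direction. However, 4 had an unadjusted p under 0.05 for a higher level, and DESeq2's Wald test called Nox4 higher. Cybb, the catalytic subunit of the phagocyte oxidase, had 1403, 1682 and 1347 CPM in MSR1 KO and 1190.2, 1120 and 1280.0 CPM in MSR1 WT. Every MSR1 KO library was above every MSR1 WT library, but the log2 fold change of 0.30 did not pass (adjusted p = 0.127). Nox4 and Noxo1 had log2 fold changes of 0.94 and -0.30 (adjusted p = 0.0786 and 0.668). The summed level of the list was 3473 to 3692 CPM in MSR1 KO and 3052 to 3152 CPM in MSR1 WT. Cybb alone supplied 1347 to 1682 CPM of it in MSR1 KO and 1120 to 1280.0 CPM in MSR1 WT.

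Because Slc7a11 is also a target of the stress factor ATF4, 27 other ATF4 targets were examined, and none was called by edgeR. Without adjustment 3 were higher and 3 were lower at p under 0.05, DESeq2's Wald test called Wars higher, and the median log2 fold change was 0.015. Wars is the tryptophanyl-tRNA synthetase gene, which interferon also induces. Among genes of at least 1 CPM it had the largest difference, 0.73 on the log2 scale (adjusted p = 0.144). The amino acid transporter gene Slc1a4 at -0.49 (adjusted p = 0.129) and the mTORC1 inhibitor gene Ddit4 at -0.40 (adjusted p = 0.167) followed. With a library left out, Wars ranged from 0.36 to 0.95 and Slc1a4 from -0.59 to -0.42, so the first place of Wars was not fixed.

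**Figure D5:**
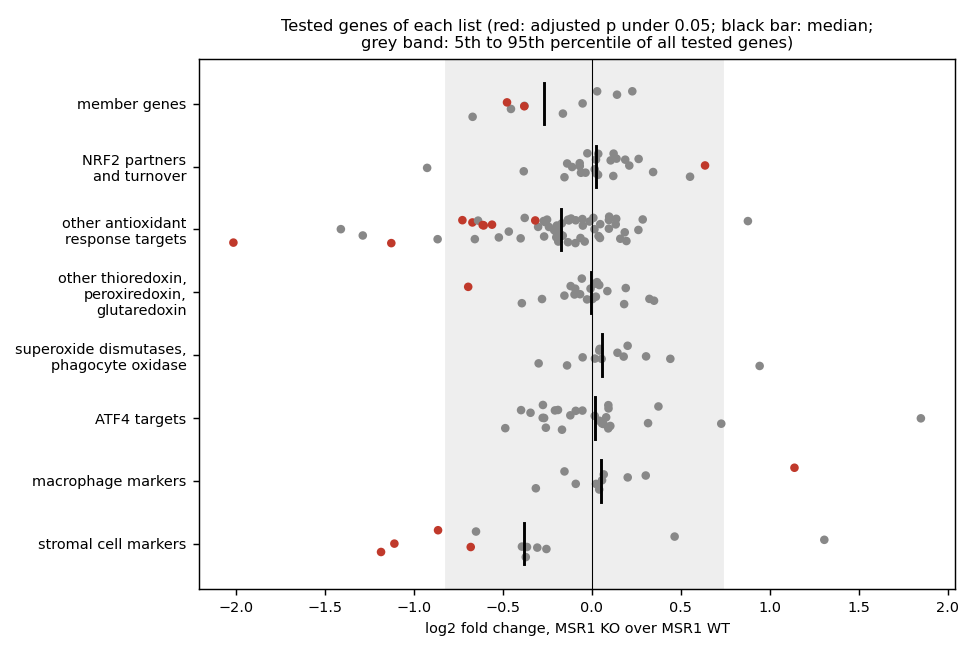
Log2 fold change of MSR1 KO over MSR1 WT (x axis) of every tested gene of each list, red where the adjusted p was under 0.05, with the median as a black bar and the 5th to 95th percentile of all tested genes (-0.82 to 0.74) as a grey band. The medians of the members (-0.27), the other antioxidant response targets (-0.18) and the stromal markers (-0.38) lie below 0, and those of the partner, thioredoxin, oxidase, ATF4 and macrophage lists lie between -0.0081 and 0.054.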

How the data were processed

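RNA-seq libraries (3 MSR1 KO and 3 MSR1 WT) were analysed from a single deposited table. The submitters' processing notes name fastp 0.17.1, HISAT2 2.1.0, DESeq2 1.18.1 and R 3.4.3, whereas the study's methods name TopHat and FPKM. The values deposited by the authors were raw counts per gene and library. Which program counted the reads, with which strand setting and on which build, is not given in the sources used here. The authors also deposited a signal column per library (counts divided by a size factor), their own log2 fold change, p-value and adjusted p-value, and a length column equal to the span of each gene, and none of these was used. Of 52550 identifiers, 52403 were found in GENCODE M21 (GRCm38), and coordinates were equal for 49909, all 10 members included. Spreadsheet software had turned 27 symbols into dates, of which 26 were restored.

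The quasi-likelihood test of edgeR 4.0.16 (R 4.3.3) was run with genotype as the only term on counts passing filterByExpr, after TMM normalization, with Benjamini-Hochberg adjustment over 16402 genes. A standard error is the log2 fold change divided by the root of its F statistic. Libraries of a group differed beyond counting noise (chi-square per gene 25.7 to 51.0), so none was counted as a duplicate. Transcripts sharing at least 100 bases at 95% identity or more were searched among GENCODE transcripts. The methods were tested on simulated counts. Intervals cover the spread between libraries. Alternatives were DESeq2 1.42.0, its size factors, library size alone, no filter except a nonzero total, a minimum of 10 counts per library, a replicate block, and omission of each library.

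The members and gene lists, written by hand from general knowledge, were chosen with earlier results of these data known. Named genes were the members, Msr1, Hmox1, Bach1, Mafg, Mafk, Nfe2l1, Cul3, Sqstm1 and, of each pathway list, up to 6 called genes with the largest difference, or the 3 largest with at least 1 CPM where fewer than 3 were called. Dpp3 of the partner list had no match, and Nfe2l3 had at most 7 counts and was not tested. The other lists gave 1 of 10 macrophage markers higher (Fcgr1), 12 neutrophil markers with none called by edgeR (4 higher at an unadjusted p under 0.05 and 3 called by DESeq2, all 12 with a positive log2 fold change), 1 B cell marker lower (Ebf1), 1 of 7 dendritic cell markers lower (Itgax) with Xcr1 called higher by DESeq2 and Xcr1 and Ccr7 higher by the study's definition, 2 erythroid markers with no call by either tool or at an unadjusted p under 0.05, and 15 of 18 interferon response genes higher.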

Additional observations from a re-analysis of the deposited data

How the results depend on the processing

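No member was called higher in any of the 13 settings, and the median log2 fold change of the members stayed negative. The 2 members called lower became 3 with DESeq2's Wald test (Txnrd1 added), 1 without a filter on low counts and 0 to 2 with a library left out: 0 without MSR1 KO replicate 1 or 2 or MSR1 WT replicate 1 or 2, and 1 without MSR1 WT replicate 3. Members lower by the study's definition numbered 0 to 1 with a library left out. Other antioxidant response targets called lower numbered 12 with DESeq2, 4 without a filter and 0 to 8 with a library left out. The median log2 fold change of the members was -0.34 to -0.16 with a library left out, the least negative without MSR1 WT replicate 2. The log2 fold change of Gclm turned to -0.0036 with library size alone, and it ranged from -0.17 to 0.19 with a library left out, turning negative without MSR1 KO replicate 3 (-0.17), MSR1 WT replicate 2 (-0.064) or MSR1 WT replicate 3 (-0.024). The Gclm to Gclc ratio ranged from -0.015 (without MSR1 WT replicate 2) to 0.43 as a log2 difference. The cause of these shifts was not tested, and a fit with 1 library left out also rests on fewer libraries. Over all genes, 805 calls became 1563 with DESeq2, 525 without a filter and 71 to 779 with a library left out.

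With the replicate number as a block, no member was called lower (0), none met the study's definition (0) and no other target was called (0). The adjusted p of edgeR's quasi-likelihood test was then 0.0664 for Srxn1 and 0.0974 for Prdx1. Over all genes, that fit gave 137 calls. Whether the numbers mark a shared day or culture is not given in the sources used here. Same-numbered libraries had correlations of -0.026, 0.019 and -0.0048 between their deviations from the group means. Not every library correlated best with its own number. Such correlations, from means of 3 libraries, cannot exclude a pairing that acts on some genes. With 71 to 183 counts per library, Nqo1 had the least precise estimate of the members.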
